A study of Mus musculus with 9 samples.

Results

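The Hippo kinase cassette and the scaffolds that switch it on were followed in mouse embryonic stem cells that carried or lacked its effectors YAP and TAZ. The 10 genes were taken by symbol from the deposited expression table and are 10 of its 38940 rows. They are the kinase genes Stk3 (MST2), Stk4 (MST1), Lats1 and Lats2, the adaptor genes Sav1, Mob1a and Mob1b, and the upstream scaffold genes Nf2 (Merlin), Wwc1 (KIBRA) and Wwc2. All 10 were above 0 in every library.

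RNA was sequenced from 3 libraries each of 3 groups, named here after the sample titles. Control cells were Yap f/f Taz f/f, with floxed and undeleted alleles of both effector genes. Taz KO cells were Yap f/f Taz ∆/∆, and double KO cells were Yap ∆/∆ Taz ∆/∆. The genotype field of the double KO libraries names the Taz KO genotype, so the grouping follows titles and descriptions. Per the labels' protocols the embryonic stem cells received a Cre-ERT2 transgene driven by the CAG promoter through piggyBac transposition, and 500 nM 4-OHT, which activates Cre-ERT2, induced recombination. The labels do not say whether control cells received 4-OHT, or whether a group is 1 clone. All cells grew on fibronectin in N2B27 medium with Lif (4 ng/ml), the MEK inhibitor PD0325901 (0.4 µM) and the GSK3 inhibitor CHIR99021 (3 µM).

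In the textbook pathway, MST1/2 bound to SAV1 phosphorylate LATS1/2 and MOB1, and active LATS1/2 phosphorylate YAP and TAZ, which keeps them out of the nucleus. NF2 and the WWC proteins act upstream at the cell cortex and promote LATS activation. When YAP and TAZ are nuclear they bind TEAD factors at DNA, and inhibitors of the pathway itself, LATS2 among them, are known target genes in other cells. The signal travels by phosphorylation, which RNA-seq does not measure, so the values below describe transcript levels only.

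RefSeq promoter windows on GRCm38.p6, each from 250 bases before to 50 after an annotated start, were found for 9 of the 10 genes, in 11 windows. The windows were searched on both strands for GGAATG, a core of TEAD sites, and TGANTCA, the AP-1 site; the motifs do not overlap in the windows shown. GGAATG was in 4 of the 11 windows against 14.7% of 32851 RefSeq promoter windows of the same length, and TGANTCA was in 0 of 11 against 7.81%. The windows of Wwc1 (chr11:35980478-35980777, minus strand), Wwc2 (chr8:47990495-47990794, minus strand) and Lats2 (chr14:57746074-57746373, minus strand) are shown because these are the scaffold gene called in the double KO, its paralog, and the kinase gene with the lowest level. Each is printed 5′ to 3′, and capitals mark GGAATG or its reverse complement.
Wwc1: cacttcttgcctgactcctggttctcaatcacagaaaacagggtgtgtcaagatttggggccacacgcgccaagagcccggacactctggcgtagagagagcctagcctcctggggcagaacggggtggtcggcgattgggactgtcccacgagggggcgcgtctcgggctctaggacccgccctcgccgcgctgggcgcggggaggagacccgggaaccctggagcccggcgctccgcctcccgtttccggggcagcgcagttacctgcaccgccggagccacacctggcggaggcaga
Wwc2: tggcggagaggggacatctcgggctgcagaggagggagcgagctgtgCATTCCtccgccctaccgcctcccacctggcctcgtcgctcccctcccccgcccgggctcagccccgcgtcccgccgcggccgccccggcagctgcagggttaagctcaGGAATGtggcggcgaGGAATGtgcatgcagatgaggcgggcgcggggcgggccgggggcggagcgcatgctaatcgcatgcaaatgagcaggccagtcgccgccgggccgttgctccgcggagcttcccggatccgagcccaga
Lats2: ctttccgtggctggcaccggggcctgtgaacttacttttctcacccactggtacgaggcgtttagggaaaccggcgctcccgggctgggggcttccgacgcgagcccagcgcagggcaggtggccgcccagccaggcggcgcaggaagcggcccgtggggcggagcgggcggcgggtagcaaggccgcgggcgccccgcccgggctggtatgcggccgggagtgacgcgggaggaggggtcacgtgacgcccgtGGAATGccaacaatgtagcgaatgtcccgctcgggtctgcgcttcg
The Wwc2 window held 3 matches, which 0.122% of all windows reached, and the Lats2 window shown held 1, just after the start. RefSeq has a second Lats2 window (chr14:57734369-57734668, minus strand), which held none. The Wwc1 window held none. A match is a description of the letters and not of a bound site.

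Recovered library totals ranged from 19.1 to 24.0 M reads. Yap1 was at 18.1, 18.1 and 19.1 FPKM (fragments per kilobase, scaled for depth) in control replicates 1 to 3, at 18.6, 17.9 and 18.5 in Taz KO and at 4.14, 3.98 and 4.62 in double KO, so it was lower in the 3 libraries labelled as deleted for Yap. Wwtr1, which encodes TAZ, was at 11.1 to 12.7, 9.03 to 11.9 and 13.2 to 14.7 FPKM, and a value summed over the gene does not check the deletion of some of its exons. All 8 embryonic stem cell markers examined were expressed, and their summed levels in control, Taz KO and double KO libraries were 4631 to 4967, 3842 to 4200 and 2294 to 2609 FPKM. Most of this difference was 1 gene named after its values were seen, Dppa5a, with means of 3261 ± 157, 2575 ± 153 and 1139 ± 115 FPKM (SD, n = 3). The other markers did not all share that order. The means of Pou5f1, Klf4 and Tfcp2l1 also fell from control over Taz KO to double KO. Those of Sox2 and Nanog were lowest in double KO but did not fall from control to Taz KO. The remaining markers rose in that order: Zfp42 had means of 72.5, 98.6 and 118 FPKM and Esrrb of 129.7, 134.1 and 135.0. Summed levels of 8 fibroblast markers were 1.88 to 3.55, 1.53 to 4.85 and 2.83 to 9.75 FPKM, with Dcn, Lum and Postn at 0 in every library and 1 of the 8, Thy1, at a mean of at least 1 FPKM. Those of 5 primitive endoderm markers were at most 3.55 FPKM and those of 4 trophectoderm markers at most 9.65. Replicate 2 stood apart, most in the knockout groups: a chi-square test of recovered reads gave 37.0 to 46.1 per gene between replicate 2 and either other replicate, against 5.69 to 6.71 between replicates 1 and 3. In control the pairs with replicate 2 gave 16.8 and 25.8, against 10.3 between replicates 1 and 3. Results for the 9 tested genes of the 10 are therefore also given without replicate number 2 of all 3 groups where this changes them, an alternative chosen after seeing the data. The pathway lists are not given in that setting, in which 3 calls of their named genes were lost.

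In control cells the scaffold Nf2 and the adaptor Mob1a were the most abundant of the 10 transcripts, and Lats2 was the least. Mean levels per length in control were 28.6 FPKM for Nf2, 26.2 for Mob1a, 17.0 for Stk4, 14.6 for Wwc1, 14.4 for Wwc2, 14.1 for Stk3, 10.7 for Sav1, 4.65 for Lats1, 3.09 for Mob1b and 0.867 for Lats2. The neighbours Wwc1 and Wwc2, and Wwc2 and Stk3, overlapped over the 3 control libraries, and all other neighbours did not. Nf2 and Mob1a came within 27.9 and 27.8 FPKM of each other. The order depends on the gene lengths the authors used. From the read steps these were 3237 bases for Stk3, 2524 for Sav1, 6546 for Wwc2 and 10927 for Mob1b, against 6114, 5265, 13784 and 15033 exonic bases in the GENCODE annotation of GRCm38. Both lengths were equal for Stk4, Mob1a, Nf2 and Wwc1.

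**Figure D1:**
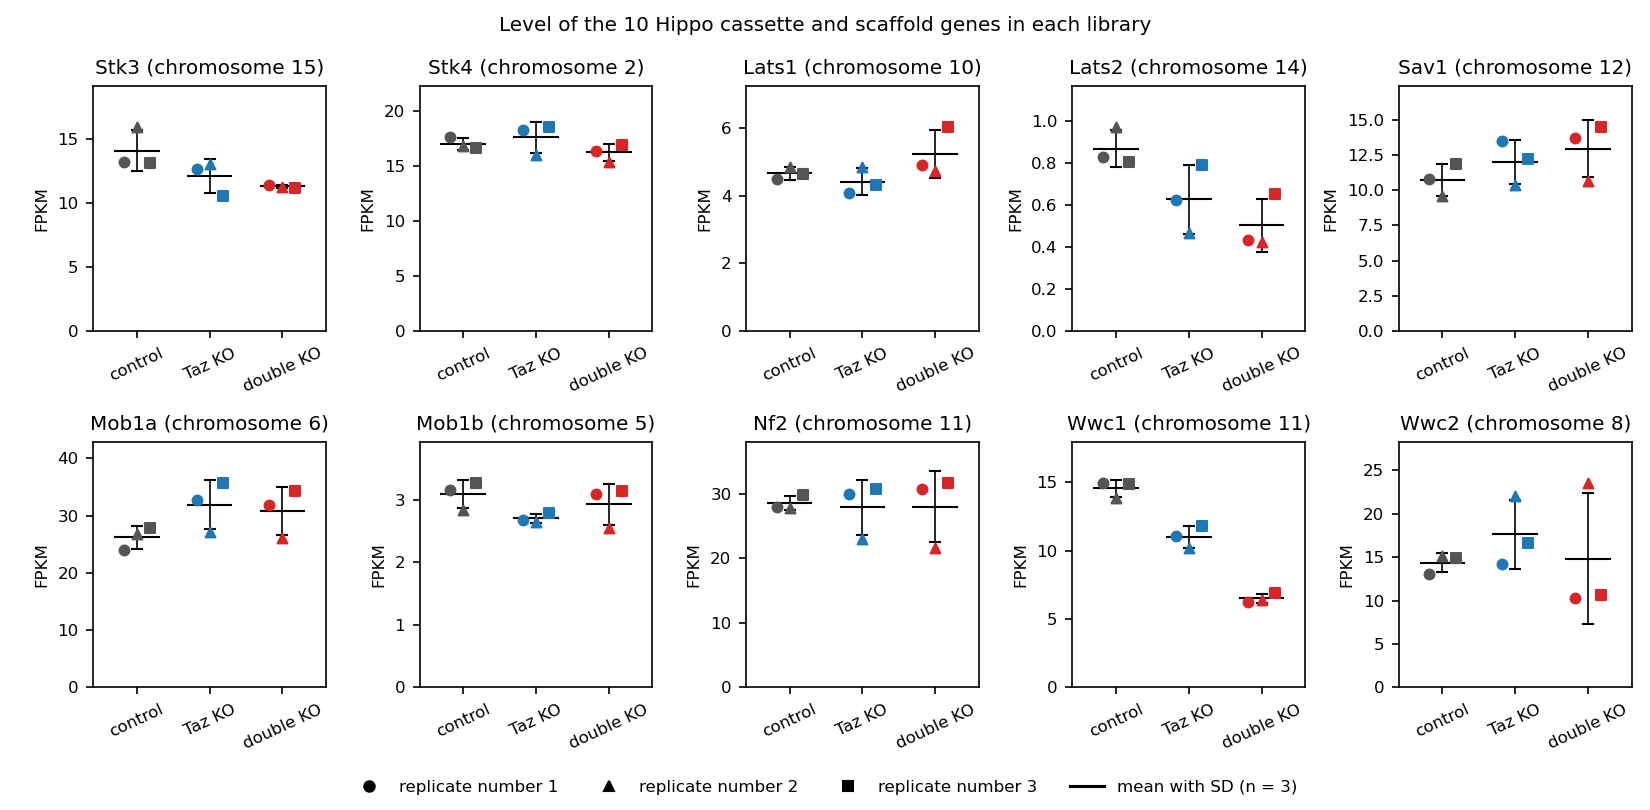
Level of each gene in FPKM (linear axes from 0) in the 3 control, 3 Taz KO and 3 double KO libraries, with the mean and SD as bars and the replicate number as the symbol. Wwc1 steps down from 13.8 to 14.9 in control over 10.2 to 11.8 in Taz KO to 6.27 to 6.88 in double KO, and replicate 2 of both knockout groups stands above the others for Wwc2 and below them for Nf2.

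Without the replicate number in the fit, Wwc1 was the 1 gene of the 9 tested that was called in the double KO. Its level fell to 44.7% of control, while the second WWC gene, Wwc2, and the tested kinase and adaptor genes did not pass. With the replicate number as a block Stk3 (adjusted p = 0.0111) was also called as a fall and Sav1 (0.0154) as a rise, and Wwc1 was called in Taz KO (0.00507). Of the 9 genes with a mean of at least 1 FPKM, which limma tested among 11674 genes, 0 rose and 1 fell in double KO against control at an adjusted p under 0.05, and 25.3% of all tested genes changed. In Taz KO against control 0 of the 9 were called, where 1.28% of all genes were. Wwc1 had an unadjusted p of 0.000774 there (limma). It was called in Taz KO by limma-voom on the recovered reads, which called 1.51% of all genes. Between the knockout groups, double KO against Taz KO, 0 rose and 1 fell, again Wwc1, where 13.9% of all genes changed. Groups did not overlap for 2 of the 9 genes in double KO against control (Stk3 and Wwc1, both lower), for 3 in Taz KO against control (Stk3, Mob1b and Wwc1, all lower) and for 1 in double KO against Taz KO (Wwc1), against 45.6%, 18.7% and 30.6% of all tested genes. By either count the 9 genes did not change more often than tested genes at large in double KO against control.

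Of the 4 kinase genes, the 3 that entered the test did not pass it in any comparison over all 9 libraries without the block. Stk3 (ENSMUSG00000022329, chromosome 15, 34875496 to 35178921, minus strand, GRCm38) encodes MST2, one of the STE20-like kinases that phosphorylate LATS1/2. It was at 13.2, 15.9 and 13.1 FPKM in control, at 12.7, 13.1 and 10.6 in Taz KO and at 11.4, 11.3 and 11.2 in double KO. Every double KO library was below every control library, and control replicate 2 was the highest of the 9. The double KO mean was 80.2% of control, with a log2 fold change of -0.30 ± 0.10 (SE) and an adjusted p of 0.0624 (limma, on log2(FPKM + 0.5)), or 0.0111 with the replicate number as a block and 0.0471 without Taz KO replicate 3. Libraries with the same replicate number deviated together, so the fit with the block is given wherever it changes a call. Stk3 was lower in double KO within each of the 3 replicate numbers, by 0.20, 0.48 and 0.22 in log2 units. In Taz KO its mean was 85.9% of control (-0.21, adjusted p = 0.462).

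Stk4 (ENSMUSG00000018209, chromosome 2, 164070322 to 164155524, plus strand), which encodes the paralogous kinase MST1, was at 17.6, 16.8 and 16.6 FPKM in control. It was at 18.2, 16.0 and 18.6 in Taz KO and at 16.4, 15.4 and 16.9 in double KO. The 3 groups overlapped. Its log2 fold change in double KO against control was -0.07, with a 95% interval of -0.24 to 0.11 (adjusted p = 0.565), the narrowest of the kinase intervals.

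LATS1 and LATS2 are the kinases that phosphorylate YAP and TAZ. Lats1 (ENSMUSG00000040021, chromosome 10, 7681214 to 7716460, plus strand) was at 4.48, 4.85 and 4.63 FPKM in control, at 4.07, 4.85 and 4.32 in Taz KO and at 4.89, 4.74 and 6.03 in double KO. The groups overlapped, and double KO replicate 3 was the highest library. Its log2 fold change in double KO against control was 0.14, with a 95% interval of -0.09 to 0.38 (adjusted p = 0.340).

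Lats2 (ENSMUSG00000021959, chromosome 14, 57689662 to 57758388, minus strand) was at 0.827, 0.970 and 0.804 FPKM in control, at 0.621, 0.464 and 0.790 in Taz KO and at 0.433, 0.423 and 0.649 in double KO. The level was lower than every control library in all 6 knockout libraries, which rest on 69 to 106 recovered reads each, against 114 to 157 in control. In Taz KO the mean was 72.1% of that of control, and in double KO it was 57.9%. With a mean of 0.665 FPKM, Lats2 did not enter the test. With no filter on low values, 10.8% of 24621 genes were called in double KO against control, and Lats2 gave a log2 fold change of -0.45 ± 0.15 (SE) with an adjusted p of 0.103, or 0.0605 with the replicate block. The 0.5 added to each value shrinks a difference at this level. With 0.1 added instead, limma gave a larger difference, -0.70, and an adjusted p of 0.130. Of these settings only limma-voom on the recovered reads passed, at -0.82 with an adjusted p of 0.0470. In Taz KO the difference was -0.29 (adjusted p = 0.656), and between the knockout groups it was -0.16 (adjusted p = 0.614). The median over the tested genes of its chromosome, 14, was 0.11 in double KO and 0.10 in Taz KO, on the other side of 0 from Lats2. Exons of Lats2 overlap those of the annotated gene Gm49361 on the same strand, for which no row was matched.

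**Figure D2:**
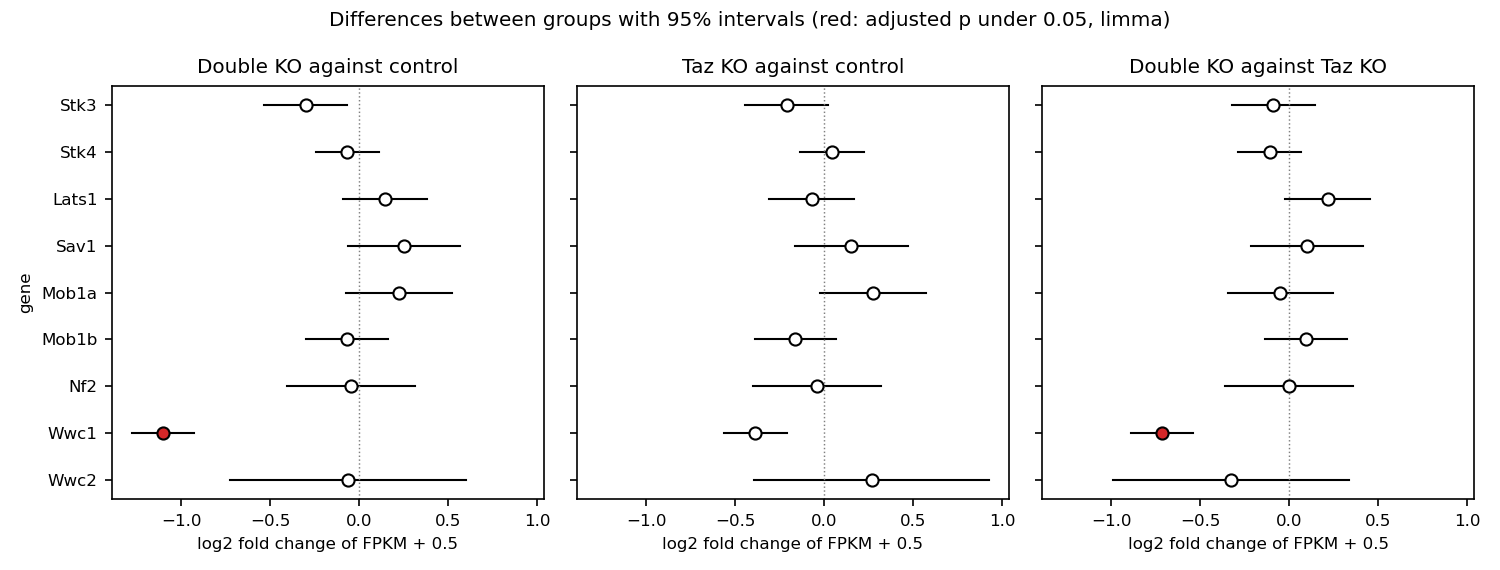
Log2 fold change of FPKM + 0.5 (x axis) with 95% intervals for the 9 tested genes in 3 comparisons, with red points at an adjusted p under 0.05 (limma, 11674 genes). Wwc1 lies at -1.10 in double KO against control and at -0.72 against Taz KO, and the widest intervals belong to Wwc2.

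The adaptor genes Sav1 and Mob1a had higher means in double KO than in control and Mob1b a lower one, and none passed the test without the block. Sav1 (ENSMUSG00000021067, chromosome 12, 69965012 to 69987002, minus strand), whose product joins MST1/2 to LATS1/2, was at 10.8, 9.58 and 11.8 FPKM in control. It was at 13.5, 10.4 and 12.2 in Taz KO and at 13.7, 10.6 and 14.5 in double KO. Replicate 2 was the lowest library of every group, so the groups overlapped although Sav1 was higher than control within all 3 replicate numbers in both knockouts. In double KO against control its log2 fold change was 0.25 (adjusted p = 0.214), which passed the test with the replicate block (adjusted p = 0.0154) and without replicate number 2 (0.31, adjusted p = 0.0232). Exons of Sav1 overlap those of Atl1 on the opposite strand, which was at a mean of 1.30 FPKM.

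MOB1A and MOB1B are co-activators that bind LATS1/2. Mob1a (ENSMUSG00000043131, chromosome 6, 83326016 to 83343776, plus strand) was at 24.0, 26.7 and 27.8 FPKM in control, at 32.8, 27.2 and 35.7 in Taz KO and at 31.9, 26.1 and 34.3 in double KO. Replicates 1 and 3 of both knockouts were above all control libraries, and replicate 2 lay within them. The log2 fold change was 0.22 in double KO (adjusted p = 0.237) and 0.27 in Taz KO (adjusted p = 0.447). Without replicate number 2 it was 0.35 in double KO (adjusted p = 0.0211). This difference moved with the chromosome: the median over the 495 tested genes of chromosome 6 was 0.19 in double KO and 0.21 in Taz KO, against -0.02 and 0.01 over all tested genes. Centred on the chromosome medians, Mob1a was at -0.08 (adjusted p = 0.576) and 0.03 (adjusted p = 0.986), and the cause of the chromosome shift was not tested.

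Mob1b (ENSMUSG00000006262, chromosome 5, 88720855 to 88764220, plus strand) was at 3.17, 2.84 and 3.27 FPKM in control. It was at 2.68, 2.65 and 2.79 in Taz KO and at 3.09, 2.55 and 3.14 in double KO. All Taz KO libraries were below all control libraries, and those of double KO overlapped them. The log2 fold change was -0.16 in Taz KO (adjusted p = 0.617) and -0.07 in double KO (adjusted p = 0.648).

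Among the scaffolds, Nf2 (ENSMUSG00000009073, chromosome 11, 4765845 to 4849536, minus strand) encodes Merlin, a FERM-domain tumour suppressor that recruits LATS1/2 to the membrane. It was at 28.0, 27.9 and 29.8 FPKM in control, at 30.0, 23.0 and 30.7 in Taz KO and at 30.8, 21.7 and 31.7 in double KO. The knockout libraries of replicate 2 were below all control libraries and the other 4 knockout libraries were above them. The log2 fold change was -0.05 in double KO (adjusted p = 0.857) and -0.04 in Taz KO (adjusted p = 0.977). The 95% interval in double KO, -0.40 to 0.31, holds changes in either direction.

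Wwc1 (ENSMUSG00000018849, chromosome 11, 35838400 to 35980527, minus strand) encodes KIBRA, a WW-domain protein that acts with NF2 to promote LATS activation. It was at 14.9, 13.8 and 14.9 FPKM in control, at 11.1, 10.2 and 11.8 in Taz KO and at 6.27, 6.38 and 6.88 in double KO. The 3 groups were fully separate, in the order control, Taz KO, double KO, and the range within each group was narrow beside the steps between them. Group means were 14.6 ± 0.613, 11.02 ± 0.811 and 6.51 ± 0.322 FPKM (SD, n = 3), resting on 669 to 1767 recovered reads per library.

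In double KO against control Wwc1 fell by 1.10 on the log2 scale, with an SE of 0.077, a 95% interval of -1.28 to -0.93 and an adjusted p of 8.03e-05 (limma). It was lower within each replicate number, by 1.19, 1.06 and 1.06. It also fell in double KO against Taz KO, by 0.72 (adjusted p = 0.00151). The comparisons share libraries, so they are not independent. In Taz KO the mean was 75.7% of control and the difference was -0.39 ± 0.077 (SE), with an adjusted p of 0.0528, or 0.00507 with the replicate block. It was lower in Taz KO within all 3 replicate numbers, by 0.41, 0.43 and 0.32. Leaving out each of the 9 libraries in turn gave adjusted p-values of 8.59e-05 to 0.00114 in double KO against control, and of 0.0522 to 0.233 in Taz KO against control. The chromosome 11 median was -0.06 and -0.01 in the 2 knockouts, so Wwc1 stood far from its chromosome: centred on it, the difference was -1.10 in double KO. In bulk RNA a lower level in every cell and fewer cells that express the gene cannot be told apart. The means of the stem cell markers Dppa5a, Pou5f1, Klf4 and Tfcp2l1 fell in the same order, as given above. The means of Sox2 and Nanog were lowest in double KO. Those of Zfp42 and Esrrb rose, and the part of such shifts in the Wwc1 difference was not tested.

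Wwc2 (ENSMUSG00000031563, chromosome 8, 47823959 to 47990924, minus strand) encodes a second WWC protein that binds LATS1/2. It was at 13.1, 15.2 and 14.9 FPKM in control, at 14.3, 22.1 and 16.6 in Taz KO and at 10.3, 23.5 and 10.6 in double KO. Double KO replicates 1 and 3 were the lowest of the 9 libraries, and replicate 2 of the same group was the highest. Over all 3 libraries the log2 fold change in double KO against control was -0.06, with a 95% interval of -0.72 to 0.60 (adjusted p = 0.894).

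The value for Wwc2 rested on replicate number 2. Without it, Wwc2 was at -0.40 in double KO against control (adjusted p = 0.0176) and at -0.54 against Taz KO (adjusted p = 0.00791). Leaving out double KO replicate 2 alone gave -0.71 against Taz KO (adjusted p = 0.0294). Within the replicate numbers the double KO minus control differences were -0.33, 0.62 and -0.47. Chromosome 8 had the largest median of the autosomes in both knockouts, 0.30 in double KO and 0.35 in Taz KO, and centred on them Wwc2 was at -0.41 (adjusted p = 0.358) and -0.10 (adjusted p = 0.986). Why chromosome 8 and replicate 2 stand apart was not tested.

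Without replicate number 2, the members called numbered 4 of 9 in double KO against control (Wwc1 and Wwc2 fell, Mob1a and Sav1 rose), where 41.9% of all genes were called. The count was 1 of 9 in Taz KO against control (Wwc1, -0.37, adjusted p = 0.0481), where 3.62% were called, and 2 of 9 in double KO against Taz KO, where 36.6% were. With the replicate block it was 3 of 9 (Wwc1 and Stk3 fell, Sav1 rose), 1 of 9 and 1 of 9 (Wwc1 in both), against 52.4%, 11.8% and 42.4% of all genes. Wwc1 was the 1 gene called in double KO against control under all of these settings.

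**Figure D3:**
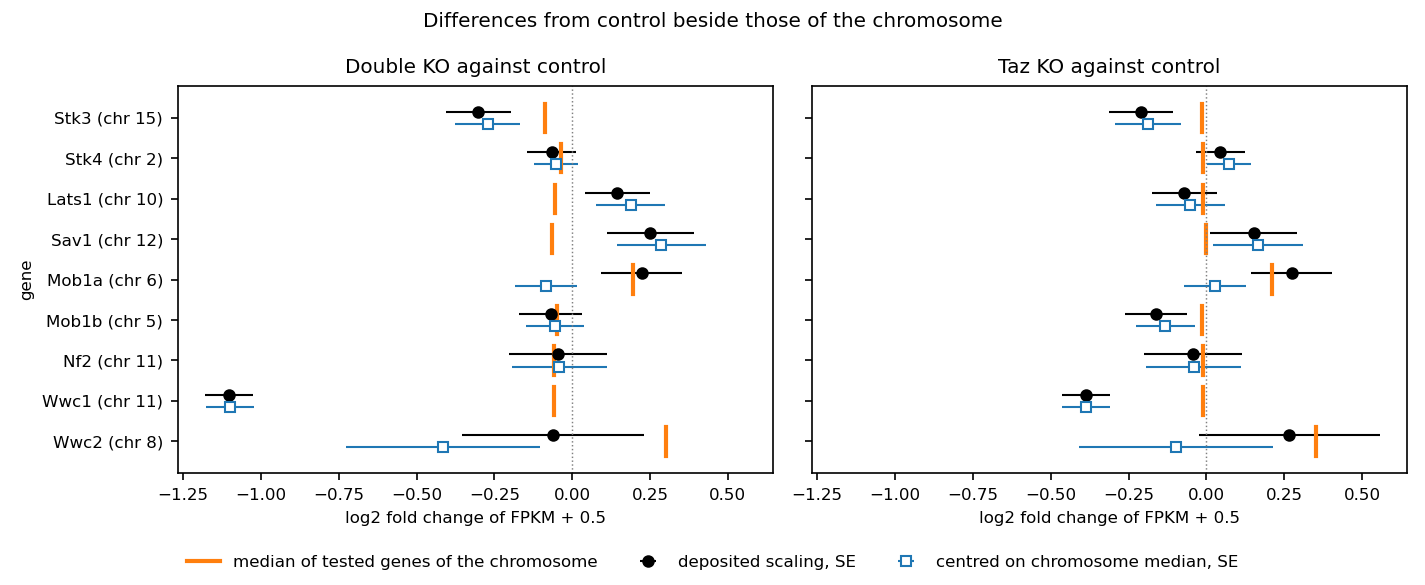
Log2 fold change of FPKM + 0.5 against control (x axis, with SE) for the 9 tested genes as deposited (black) and after centring each gene on its chromosome median in each library (blue), with the chromosome median itself in orange. Mob1a on chromosome 6 moves from 0.22 to -0.08 and Wwc2 on chromosome 8 from -0.06 to -0.41 in double KO, and Wwc1 stays at -1.10.

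The cassette holds 4 pairs of paralogs (Stk3 and Stk4, Lats1 and Lats2, Mob1a and Mob1b, Wwc1 and Wwc2), and the ratio of 2 genes in 1 library does not depend on how that library was scaled. The balance within the pairs was compared over the 3 groups with an exact permutation test of the F statistic over all 1680 ways of labelling the 9 libraries, which cannot give a p under 0.00357. Of the 4 pairs, Mob1b/Mob1a passed after adjustment over the 4. Without Taz KO replicate 2 all 4 passed, with exact permutation adjusted p-values of 0.0190 for Lats2/Lats1, Mob1b/Mob1a and Wwc2/Wwc1 and 0.0357 for Stk3/Stk4. That was the 1 of the 9 fits without 1 library in which Lats2/Lats1, Stk3/Stk4 or Wwc2/Wwc1 passed. Their adjusted p-values in these fits reached 0.164, 0.621 and 0.225.

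Mob1b/Mob1a had mean log2 ratios of -3.08 ± 0.159, -3.55 ± 0.168 and -3.39 ± 0.0518 in the order control, Taz KO, double KO (SD, n = 3; exact permutation p = 0.0107, adjusted p = 0.0429). Mob1a was thus 8.47 times as abundant as Mob1b in control, 11.7 times in Taz KO and 10.5 times in double KO. All 6 knockout libraries were below all 3 control libraries in this ratio. It was not called in 7 of the 9 fits that left out 1 library (adjusted p up to 0.143, without control replicate 1). With the replicate block the exact permutation adjusted p was 0.0556. That test relabels libraries only within a replicate number, so its smallest possible p is higher, and this ratio reached it. Mob1a lies on chromosome 6, whose median difference from control is given above beside that of Mob1a.

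Wwc2/Wwc1 had ratios of -0.02 ± 0.163, 0.66 ± 0.403 and 1.07 ± 0.703 (exact permutation p = 0.0857, adjusted p = 0.114). The paralogs overlapped in control, and Wwc2 was the higher in all 6 knockout libraries, by 1.28 to 3.69 times. The summed level of both was 28.0, 29.0 and 29.7 FPKM in control, 25.4, 32.2 and 28.4 in Taz KO and 16.6, 29.9 and 17.5 in double KO. Double KO replicate 2 thus summed to no less WWC transcript than the control libraries, with more Wwc2 and less Wwc1, and replicates 1 and 3 had less of both.

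Lats2/Lats1 had ratios of -2.43 ± 0.102, -2.85 ± 0.482 and -3.40 ± 0.160 (exact permutation p = 0.0429, adjusted p = 0.0857). Lats1 was 5.002 to 5.76 times as abundant as Lats2 in the control libraries and 9.28 to 11.3 times in those of double KO. Taz KO spanned both groups, from 5.46 to 10.4 times. With 0.5 FPKM added to both genes the adjusted p was 0.0357. For Stk3/Stk4 the ratios were -0.28 ± 0.181, -0.54 ± 0.260 and -0.52 ± 0.0776 (exact permutation p = 0.261, adjusted p = 0.261), and Stk4 was the higher in all 9 libraries.

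**Figure D4:**
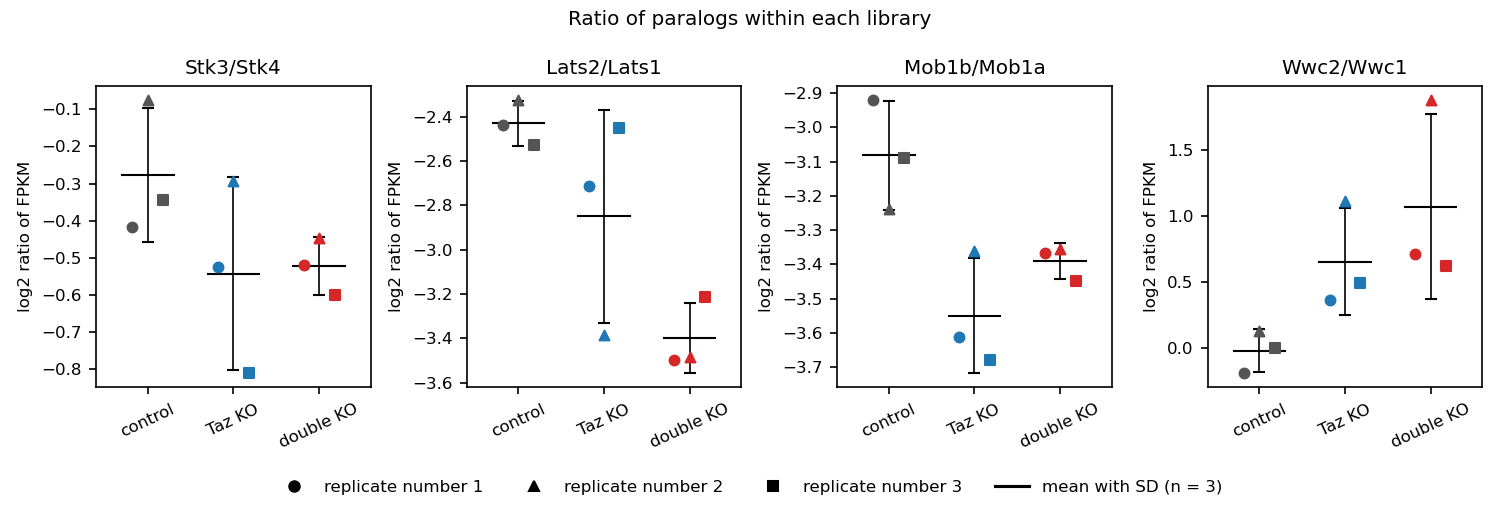
Log2 ratio of FPKM of 2 paralogs (y axis, own scale per panel) in each of the 9 libraries, with the mean and SD of each group and the replicate number as the symbol. The control libraries lie apart from the double KO libraries in all 4 pairs, and the Wwc2/Wwc1 ratio of double KO replicate 2 stands above the other libraries at 1.88.

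The other genes of the pathway were read from 6 lists chosen by function with earlier results of these data known, so their directions are not independent evidence. Of 40 listed upstream regulators and scaffolds 29 were tested, and 9 rose and 4 fell in double KO against control (44.8% called, against 25.3% of all tested genes; median 0.12, against -0.02). The LIM-domain protein gene Ajuba, whose product binds and restrains LATS1/2, fell from 38.1 ± 4.44 to 15.8 ± 1.64 FPKM (log2 fold change -1.24, adjusted p = 0.000578), and it lies on chromosome 14, whose median was 0.11. Amotl2, an angiomotin family gene whose product binds YAP and also activates LATS2, fell from 21.6 ± 2.74 to 6.99 ± 3.02 FPKM (-1.62, adjusted p = 0.00189). The gene of the polarity protein CRB3 rose from 17.3 ± 1.61 to 27.3 ± 1.29 FPKM (Crb3, 0.65, adjusted p = 0.00125). Frmd6, the gene of the FERM protein Willin, rose from 10.1 ± 0.694 to 15.2 ± 1.26 FPKM (0.57, adjusted p = 0.00357). In Taz KO 1 of the 29 rose, Crb3 (0.51, adjusted p = 0.0241), 3.45% against 1.28% of all tested genes. That call was lost in 7 of 9 fits that left out 1 library (adjusted p up to 0.0905, without Taz KO replicate 1). Relative to Taz KO, 4 rose and 4 fell in double KO, 27.6% against 13.9% of all tested genes. Frmd6 (0.57, adjusted p = 0.00769) and Ajuba (-1.26, adjusted p = 0.00153) had the smallest adjusted p-values. The replicate block gave 12 rises and 8 falls in double KO against control, where it called 52.4% of all genes. It gave 5 rises and 2 falls in Taz KO against control (11.8% of all genes). In double KO against Taz KO it gave 5 rises and 6 falls (42.4% of all genes).

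The STRIPAK complex holds the phosphatase PP2A and removes activating phosphates from MST1/2. Of its 15 tested genes of 16, 3 rose and 1 fell in double KO against control, 26.7% against 25.3% of all tested genes, with a median of 0.05. Cttnbp2, a cortactin-binding subunit gene at 0.957 ± 0.109 FPKM in control, was at 2.51 ± 0.934 in double KO (1.00, adjusted p = 0.0136), and the call was lost without control replicate 1 (adjusted p = 0.0563). The PP2A scaffold gene Ppp2r1a fell from 105 ± 1.49 to 84.7 ± 8.24 FPKM (-0.32, adjusted p = 0.0430), which 8 of 9 fits without 1 library did not call (adjusted p up to 0.128, without control replicate 1). Strn, which encodes striatin (0.28, adjusted p = 0.0183), and Fgfr1op2 (0.33, adjusted p = 0.0495) rose and were lost in 4 and 7 of those fits (adjusted p up to 0.0670 and 0.149, both without double KO replicate 3). Fgfr1op2 lies on chromosome 6 and was at 0.02 after centring on it. In Taz KO 0 of the 15 were called, where 1.28% of all tested genes were, with 2 rises under the replicate block (11.8% of all genes). Against Taz KO the double KO gave 1 rise (Strn, 0.25, adjusted p = 0.0413), 6.67% against 13.9% of all tested genes. The block made this 2 rises and 4 falls (42.4% of all genes). With the block 4 rose and 5 fell in double KO against control, where 52.4% of all genes were called.

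Kinases and MOB proteins related to the cassette numbered 10 tested of 11 listed. In double KO against control 2 rose and 0 fell, 20.0% against 25.3% of all tested genes (median 0.11, 5 rises with the block, which called 52.4% of all genes). Mob3c, a MOB family gene, rose from 8.36 ± 0.789 to 12.3 ± 0.801 FPKM (0.53, adjusted p = 0.0219). Stk38, which encodes the LATS-related kinase NDR1, was at 0.32 (adjusted p = 0.0369). Both calls were lost in some fits without 1 library, 4 of 9 for Mob3c (adjusted p up to 0.0857, without control replicate 1) and 6 of 9 for Stk38 (up to 0.118, without double KO replicate 3). In Taz KO against control 0 of the 10 were called (1.28% of all tested genes), against 2 rises with the block (11.8%). In double KO against Taz KO 0 were called (13.9% of all tested genes), against 3 rises with the block (42.4%).

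Of 19 tested ubiquitin ligase and kinase genes that act on LATS or YAP/TAZ, of 21 listed, 3 rose and 2 fell in double KO against control. This was 26.3% against 25.3% of all tested genes (median 0.05, 7 rises and 3 falls with the block, which called 52.4% of all genes). The rises were Wwp2 (0.62, adjusted p = 0.00107), Cul4a (0.43, adjusted p = 0.00598) and Sik3 (0.50, adjusted p = 0.0143), and Nedd4l (-0.62, adjusted p = 0.0224) was 1 of the falls. Sik3 was not called without control replicate 1 (adjusted p = 0.0621), and Nedd4l in 5 of 9 such fits (up to 0.0733, without double KO replicate 1). Wwp2, a NEDD4 family ligase gene, and Cul4a, a cullin gene, lie on chromosome 8 with Wwc2. Both were also called in Taz KO (0.48, adjusted p = 0.0229, and 0.43, adjusted p = 0.0385), the 2 calls of this list there, 10.5% against 1.28% of all tested genes. Those 2 calls were lost in 6 and 8 of 9 fits without 1 library (adjusted p up to 0.125 and 0.194, both without control replicate 1). After centring on the chromosome, Wwp2 was at 0.12 in Taz KO and Cul4a at 0.08 in double KO and 0.07 in Taz KO, none of them called. In double KO the 0.62 of Wwp2 before centring stood beside a chromosome 8 median of 0.30. In double KO against Taz KO Nedd4 fell (-0.29, adjusted p = 0.0272), which 5 of 9 fits without 1 library did not call (adjusted p up to 0.0965, without Taz KO replicate 3). It was the 1 call of the list there, 5.26% against 13.9% of all tested genes. The block gave 4 rises and 4 falls (42.4% of all genes).

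Downstream of the cassette, 7 of 10 genes of YAP, TAZ and their DNA-binding partners were tested. In double KO against control Tead2, a TEAD factor gene (0.71, adjusted p = 0.000295), and Vgll4, a TEAD co-repressor gene (0.31, adjusted p = 0.0251), rose and Yap1 fell (-1.998, adjusted p = 3.75e-06), with a list median of 0.10 and 42.9% called against 25.3% of all tested genes. Vgll4 lies on chromosome 6, was at 0.00 after centring on it, and was lost in 4 of 9 fits without 1 library (adjusted p up to 0.0852, without double KO replicate 3). The double KO against Taz KO gave 2 rises and 1 fall of the same 3 genes, with Yap1 at -1.99 (adjusted p = 7.75e-06) and Tead2 at 0.42 (adjusted p = 0.00619). This was 42.9% against 13.9% of all tested genes, or 3 rises and 2 falls with the block (42.4% of all genes). Taz KO against control gave 0 calls (1.28% of all tested genes), or 2 rises with the block (11.8%).

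Of 17 tested YAP/TAZ target genes outside the cassette, of 20 listed, 1 rose and 5 fell in double KO against control. This was 35.3% against 25.3% of all tested genes (median -0.18, 3 rises and 6 falls with the block, which called 52.4% of all genes). Ajuba and Amotl2 belong to this list too. The matricellular protein gene Cyr61 (-2.25, adjusted p = 9.38e-05) and the kinase gene Nuak2 (-1.20, adjusted p = 0.00126) fell as well, Nuak2 from 3.25 ± 0.363 to 1.15 ± 0.286 FPKM. In Taz KO 2 fell, 11.8% against 1.28% of all tested genes, or 4 with the block (11.8% of all genes). Without the block these were Cyr61 (-1.26, adjusted p = 0.0120) and the related Ctgf (-0.86, adjusted p = 0.0373). Both were lost in some fits without 1 library, 3 and 7 of 9 (adjusted p up to 0.0809, without control replicate 1, and 0.149, without control replicate 2). Relative to Taz KO, 1 rose and 4 fell in double KO, Ajuba and Nuak2 (-0.98, adjusted p = 0.00635) among them. This was 29.4% against 13.9% of all tested genes, or 4 rises and 6 falls with the block (42.4% of all genes). Wwc1, at -1.10 in double KO against control, lay within the range of the 5 targets called as falls there, from -2.25 to -1.08. Those 5 were picked by the same test and the list median was -0.18, so the range does not describe the targets as a set.

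**Figure D5:**
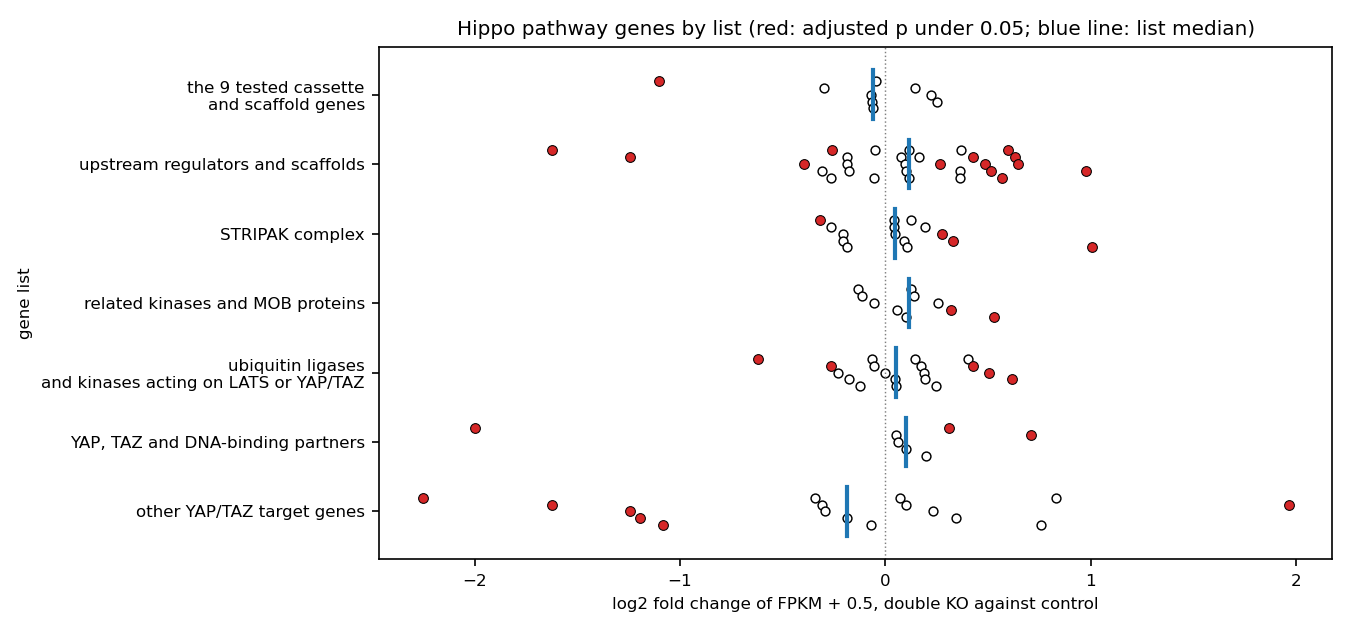
Log2 fold change of FPKM + 0.5 in double KO against control (x axis) for each tested gene of the cassette and of 6 pathway lists (rows), red at an adjusted p under 0.05 (limma), with the list median as a blue line. The medians lie between -0.18 and 0.12, and every row has genes on both sides of 0.

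Wwc1 had the smallest adjusted p of the 10 genes in double KO against control, so the genes most like it in pattern were sought. Likeness was the root mean square difference between log2(FPKM + 0.5) profiles over the 9 libraries, each centred on its own mean, and the median over all tested genes was 0.485. The closest were the aminotransferase gene Gpt2 (0.0834), the tyrosyl-tRNA synthetase gene Yars (0.0860), Gm13151 (0.102), the glutathione transferase gene Gsto1 (0.110) and the cysteinyl-tRNA synthetase gene Cars (0.110). In the order control, Taz KO, double KO, Gpt2 had means of 21.9 ± 2.32, 17.4 ± 0.950 and 10.7 ± 0.185 FPKM and Yars of 27.2 ± 1.29, 21.8 ± 2.42 and 13.2 ± 0.706 (SD, n = 3). Of these 5 genes, Gpt2 lies on chromosome 8, Yars on 4, Gsto1 on 19 and Cars on 7, and none shares chromosome 11 with Wwc1 as far as a position was matched.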

How the data were processed

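Poly(A) RNA of 9 libraries was sequenced with a directional kit, per the labels' protocols, from total RNA samples of 1 µg whose integrity number was above 7. The deposited table gives FPKM per gene and library, computed by the authors. Tools listed in the submitters' processing notes, with no role, are DESeq2, HTSeq 0.6.1 and TopHat2 2.1.1, and the build is mm10. As to annotation and strand setting of the counting, these were not given in the sources used here, so reads of overlapping genes may be split between them.

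For all 24621 genes above 0, each value was a whole number of single-read steps (tolerance 0.001), which gave the reads behind it. Depth enters only as a median-of-ratios factor, so the columns were already on a common scale, and the median of all genes moved by less than 0.1 in log2 units when libraries were scaled to their totals instead.

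Differences were tested with limma 3.58.1 (R 4.3.3) on log2(FPKM + 0.5) over the 11674 genes with a mean of at least 1 FPKM, in a model of 3 group means over all 9 libraries (6 residual degrees of freedom) with a variance trend. Tests were two-sided, with Benjamini-Hochberg adjustment over all tested genes and a threshold of 0.05, and the script was tested on simulated data. Nothing in the labels states that replicates are separate cultures, and p-values therefore cover the spread among these libraries alone, which can be technical. Paralog ratios were compared with an exact permutation test.

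Libraries with the same replicate number deviated from their group means together (correlations of 0.192 to 0.711 in 9 pairs, against -0.688 to 0.394 in 18 pairs with different numbers). The values, not the labels, give this pairing: no label says what a number marks.

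The 10 genes, the pathway lists and the markers were chosen with earlier results of these data known. Named genes are the 10, Yap1 and Wwtr1, from each pathway list up to 4 genes with the smallest adjusted p among those called in double KO against control and up to 2 in each other comparison, and the 5 genes most like the gene of the 10 with the smallest adjusted p. Names of single genes that were counted outside this rule were chosen after their values were seen. Gene positions come from GENCODE on GRCm38, the assembly that mm10 names, and promoter sequences from RefSeq.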

Additional observations from a re-analysis of the deposited data

How the results depend on the processing

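Wwc1 was called in double KO against control and in double KO against Taz KO under every alternative run: pseudocounts of 0.1 and 1, no filter or a minimum of 5 FPKM, scaling by library total, centring on chromosome medians, the 6 libraries of the comparison alone, the replicate block, limma-voom, and fits without 1 library or without replicate number 2. The count of genes called among the 9 tested in double KO against control was 1, and became 3 with the replicate block, 3 with the block and chromosome centring together, 4 without replicate number 2, and 1 to 2 in the 9 fits without 1 library, where Stk3 entered without Taz KO replicate 3 (adjusted p = 0.0471). In double KO against Taz KO the count of 1 became 2 without replicate number 2 and was 1 to 2 without 1 library. In Taz KO against control the count of 0 became 1 in some settings, Wwc1 each time. With the replicate block the adjusted p was 0.00507, where 11.8% of all genes were called, and with block and centring 0.0131 (4.75%). It was 0.0429 with a minimum of 5 FPKM (1.81% of all genes), 0.0243 when scaled by library total (1.72%) and 0.0458 by limma-voom (1.51%). Without replicate number 2 it was 0.0481 (3.62%). The count stayed 0 in all 9 fits without 1 library. The cause of these moves was not tested. The 5 FPKM minimum left 7907 genes in the fit.

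For the ratios, double KO minus control, Mob1b/Mob1a was at -0.31 with and without the replicate block and at -0.39 to -0.23 without 1 library. Its exact permutation adjusted p with the block was 0.0556, from the smallest p that relabelling within replicate numbers can give. Without replicate number 2 the ratio was at -0.40 (exact permutation adjusted p = 0.133). The labelings of those fewer libraries cannot give a p under 0.05. The other 3 pairs passed without Taz KO replicate 2, the 1 of 9 fits without 1 library in which they did. Lats2/Lats1 was at -0.60 with 0.5 added to each gene and at -1.06 to -0.92 without 1 library, Stk3/Stk4 at -0.31 to -0.14 and Wwc2/Wwc1 at 0.69 to 1.32. Over the 9 tested genes, 518 recomputed values kept their side of the threshold and 16 passed it newly, and 20 uncalled values changed sign. Lats2, outside this tally, was called by limma-voom in double KO against control (-0.82, adjusted p = 0.0470), but not by limma with 0.1 added (-0.70, adjusted p = 0.130). Of the other named genes 566 stayed, 7 passed newly and 114 no longer passed.

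Over all genes, 2948 calls in double KO against control became 6112 with the replicate block, 5598 with block and centring, 4889 without replicate number 2, 1505 without control replicate 1, 1921 without control replicate 3 and 1830 without double KO replicate 3. The 150 in Taz KO against control became 1381, 522 and 423 in the same 3 settings, 51 with centring alone, 88 from 6 libraries and 11 to 230 without 1 library. The 1620 in double KO against Taz KO became 4947, 4779 and 4277, 635 from 6 libraries and 482 to 2648 without 1 library. Among the 10 genes, Lats2 rests on the fewest reads, 69 to 157 per library.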
